A study of Mus musculus with 36 samples.

Results

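The loci described here carried more ATAC-seq tags in the border zone of infarcted hearts than in sham hearts on each of days 4, 7 and 14 after surgery. ATAC-seq uses a transposase that inserts sequencing adapters into accessible DNA, so the number of tags over a stretch of DNA reflects how open it was. Listed regions from any day were merged into a locus when they shared 1 bp or more. For each locus and day the border zone tags were divided by the sham tags, and R is this ratio relative to the median ratio of all loci of that day, so that an R of 1 is the day's median locus. A locus was kept when it was listed on all 3 days with an R of at least 1.6 on each. The rule kept 333 loci of 60847, or 1.69% of the 19733 loci that were listed on all 3 days and could have met it. The tags of all 6 libraries chose these loci, so their tags and R are given as a description and no test was made of them.

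All mice were of the FVB/N background. The sham libraries came from the left ventricle of sham-operated mice and the border zone libraries from the surviving muscle next to a myocardial infarction, with 1 library per condition and day and no replicate within a day. The day 4 mice were Cdh5-Cre; Sun1-sfGFP/-, a genotype that labels the nuclei of endothelial cells. Their protocol lists both GFP sorting and a pulldown with PCM1, a protein that surrounds cardiomyocyte nuclei, and its samples are labelled as PCM1-sorted. Which nuclei entered the day 4 libraries cannot be told from the labels, and this touches each day 4 value and each comparison of day 4 with the later days. The mice of days 7 and 14 carried Myh6-MerCreMer, a tamoxifen-dependent Cre under a cardiomyocyte promoter, together with the nTnG nuclear reporter. They received tamoxifen at 20 mg/kg before surgery, and 50000 sorted GFP-positive nuclei were used per sample. Tamoxifen-treated mice without infarction served as the controls of days 7 and 14, and the controls of day 4 were not described as tamoxifen-treated. Genotype, isolation of nuclei and aligner therefore changed together between day 4 and the later days. The sources used here do not say whether animals were pooled or which libraries shared an animal.

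Stretches of open chromatin away from gene starts are often enhancers, which bind transcription factors and raise the activity of genes at a distance. After an infarction, cardiomyocytes of the border zone are known to lower genes of the adult contractile and metabolic programme and to raise fetal and stress genes, such as Nppa and Nppb, which encode natriuretic peptides. Factors of the AP-1, MEF2 and RUNX families are known to act at enhancers of stressed heart muscle. The genes at the loci were not assigned and their sequences are not shown, because no mm9 annotation or genome was used here. For the same reason the purity of the nuclei could not be checked at marker genes. Loci are given by their mm9 coordinates, counted from 1.

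On day 4, 5.19% of the 19733 loci listed on all 3 days had an R of at least 1.6. The share was 9.24% on day 7 and 4.81% on day 14. The 333 gained loci are those for which all 3 days coincided. Their median R was 2.51 on day 4, with a range from 1.61 to 21.3. On day 7 it was 2.45 and the range ran from 1.62 to 6.66. Day 14 had a median of 2.03 within 1.6 and 9.43. Over all 19733 loci the medians were 0.941, 0.824 and 0.904. An R of at least 2 was found in 264, 253 and 174 of the 333 on days 4, 7 and 14, and on every day in 130. An R of at least 3 on every day was found in 16, and an R of at least 4 in 4.

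**Figure D1:**
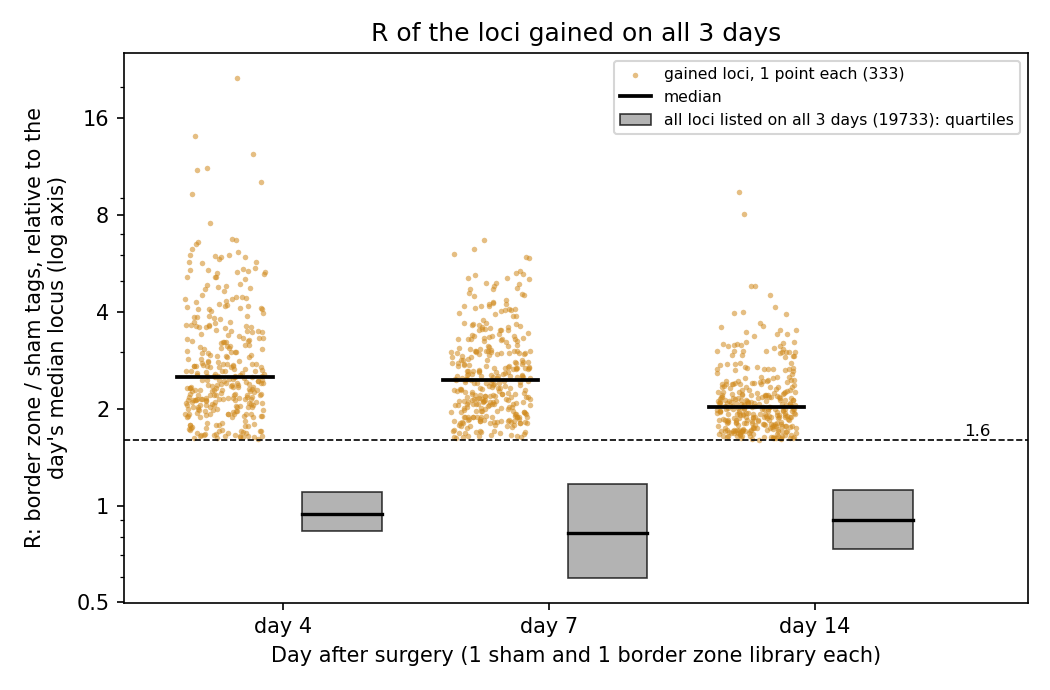
Each point is the R of 1 of the 333 gained loci on 1 day (log axis, 1 sham and 1 border zone library per day), with the median as a line, and grey boxes give the quartiles of all 19733 loci listed on all 3 days. All points lie above the dashed line at 1.6 because the rule required it, and the medians are 2.51, 2.45 and 2.03.

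The height of R differed between days. R was highest on day 4 in 176 of the 333 loci, on day 7 in 133 and on day 14 in 24. It was lowest on day 14 in 208 loci. These counts depend on the factor of each day, and the median ratio of the day 4 R to the day 7 R was only 1.05. With the factor taken from the loci listed on all 3 days, log2 R rises by 0.088, 0.28 and 0.15 on days 4, 7 and 14. The rise is largest on day 7, so the order of days 4 and 7 can change with this choice. The median ratio of the day 4 R to the day 14 R of the same locus was 1.20 (quartiles 1.0 and 1.62), and that of day 7 to day 14 was 1.17 (1.02 to 1.39). The tags behind these values also differed, from a median of 29 sham tags per gained locus on day 4 to 42 on day 7 and 143 on day 14. Under 20 sham tags were counted in 102 gained loci on day 4, in 16 on day 7 and in 0 on day 14. The part of tag number in the spread of R was not tested. Counting error alone, taken as the exact 95% binomial interval of the tags, left the 3 intervals of a locus overlapping in 274 of the 333. The day 4 interval lay above that of day 14 in 37 loci and below it in 3.

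The gained loci were weak sites in sham. Their median sham density was 24 tags per kb of listed region on day 4, 37.3 on day 7 and 121 on day 14, against 112, 80 and 290 over all loci listed on all 3 days. The typical gained locus thus ranked in the lowest few percent of sham density, at percentile 1.63 on day 4, 2.67 on day 7 and 2.49 on day 14 (median of the ranks). In the border zone, with tags divided by the day's median ratio, the same loci had medians of 65.0, 98.6 and 264 tags per kb against 107, 67.9 and 264 over all loci. Their median rank in the border zone was percentile 19.5 on day 4, 73.4 on day 7 and 50.1 on day 14. In the border zone they were therefore still below the typical locus on day 4, and at or above it on days 7 and 14. Sham and border zone tags are the 2 terms of R, so a low sham level is partly built into the choice of the loci. Because R is relative, fewer tags from other loci and more tags from the gained loci cannot be told apart.

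**Figure D2:**
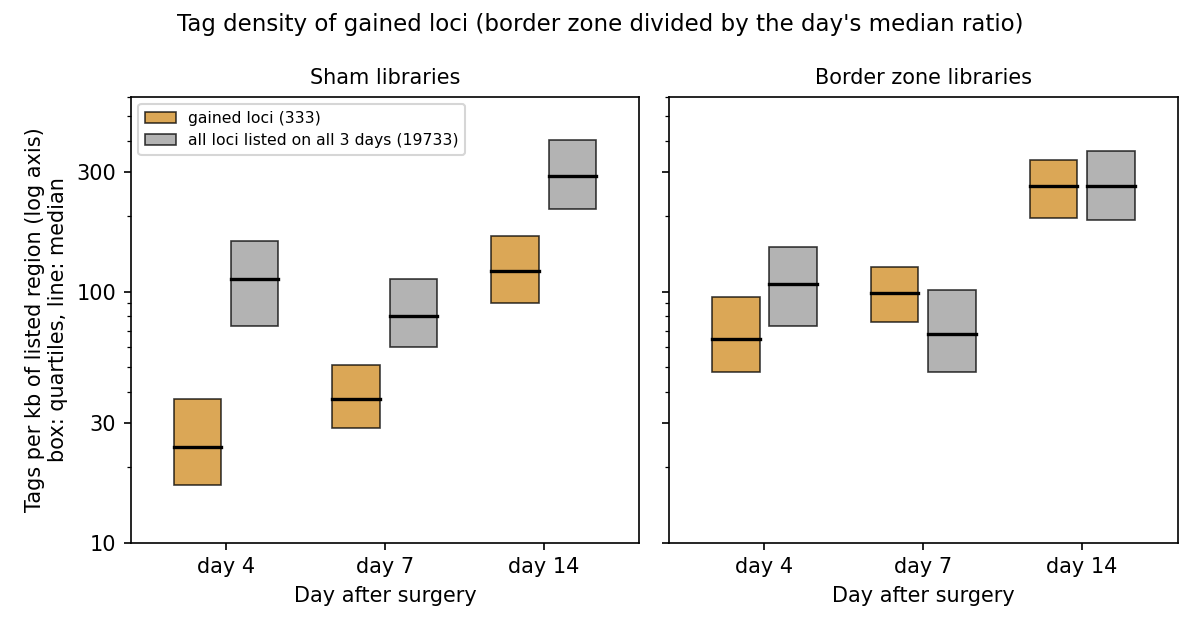
Boxes give the quartiles and lines the median of tags per kb (log axis) in the sham libraries and the border zone libraries on each day, for the 333 gained loci and for all 19733 loci listed on all 3 days. In sham the gained loci lie below the other loci on every day, at a median of 24, 37.3 and 121 tags per kb, and in the border zone they reach 65.0, 98.6 and 264.

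Together the gained loci held 0.30% of the sham tags of all loci listed on all 3 days on day 4, 0.699% on day 7 and 0.629% on day 14. They held 0.744%, 1.83% and 1.39% of the border zone tags. The sham tags, which are the divisor of R and were used to choose the loci, are compared between days here as a description. They were 1.62 times as many on day 7 as on day 4 at the median gained locus, but 0.681 times as many at the median of all loci. From day 7 to day 14 the median ratios were 3.28 and 3.55. Day 4 is also the day with other mice, another isolation of nuclei and another aligner, whose part in these ratios was not tested. Tags were summed over the regions that each day listed, which need not cover the same stretch. Listed width can therefore also enter these ratios.

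In every listed region the larger of the sham value and the listed border zone value reached a minimum. This listing minimum was read here from the values, and was 35 tags for day 4, 50 for day 7 and 150 for day 14. A weak locus could thus be listed through its border zone tags alone, and such a locus had to differ. Sham tags of a region reached the minimum without help from the border zone in 130 of the 333 gained loci on day 4, 135 on day 7 and 146 on day 14. They did so on all 3 days in 62 gained loci and on no day in 116. Of all 19733 loci listed on all 3 days, sham tags alone reached the minimum in 18974, 18515 and 18825 on days 4, 7 and 14. On each day most gained loci were thus listed through their border zone tags, unlike most of the other loci.

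Most gained loci also held regions from the authors' lists of sites higher in the border zone. This was so in 310 of the 333 on day 4, 290 on day 7 and 293 on day 14, where 6.96%, 8.69% and 7.2% of all loci listed on all 3 days held one. These lists use the same tags as R and are no separate evidence. A region of these lists was present on all 3 days in 246 gained loci, on 2 days in 69, on 1 day in 17 and on no day in 1. That 1 locus, chr10:21931751-21932750, had R values of 1.68, 1.63 and 1.62. It falls outside the naming rule and was picked for this value. On day 4, 49 gained loci included a region from the list whose border zone tags were left unscaled.

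A readout that did not choose the loci came from leaving 1 day out of the rule. When loci were chosen by an R of at least 1.6 on days 4 and 14 alone, 381 loci were found, and their median R on day 7 was 2.29 (quartiles 1.85 and 2.98). Of these, 87.4% also had an R of at least 1.6 on day 7, where 9.24% of all loci did. Loci chosen on days 4 and 7 numbered 593, with a median R of 1.69 on day 14 (1.43 to 2.08), and 56.2% of them reached 1.6 against 4.81% of all loci. Loci chosen on days 7 and 14 numbered 688. Their median R on day 4 was 1.56 (1.13 to 2.46), and 48.4% reached 1.6 against 5.19% of all loci. An R above 1 on the left-out day was found in 99.2%, 97.0% and 82.8% of these loci for days 7, 14 and 4, against 35.3%, 37.1% and 38.3% of all loci. The libraries of the left-out day were thus higher in the border zone at most loci that the other days had picked, and least often so on day 4. With 1 pair of libraries a day these shares describe these libraries and carry no test.

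These shares include loci that the left-out day listed only through its border zone tags. Among loci whose sham tags alone reached the listing minimum of the left-out day, the median R for day 7 was 2.01, that for day 14 was 1.55 and that for day 4 was 1.27. An R of at least 1.6 was reached by 80.8% of 167 loci on day 7, 41.7% of 350 on day 14 and 30.3% of 429 on day 4. The background among all loci of that kind was 5.83%, 2.91% and 3.06%. Sham tags are the divisor of R, so this restriction lowers R as well as removing the loci that had to differ. The shares stayed above the background on each day. The median of day 14 moved from above 1.6 to below it, and that of day 4 was below 1.6 with and without the restriction.

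**Figure D3:**
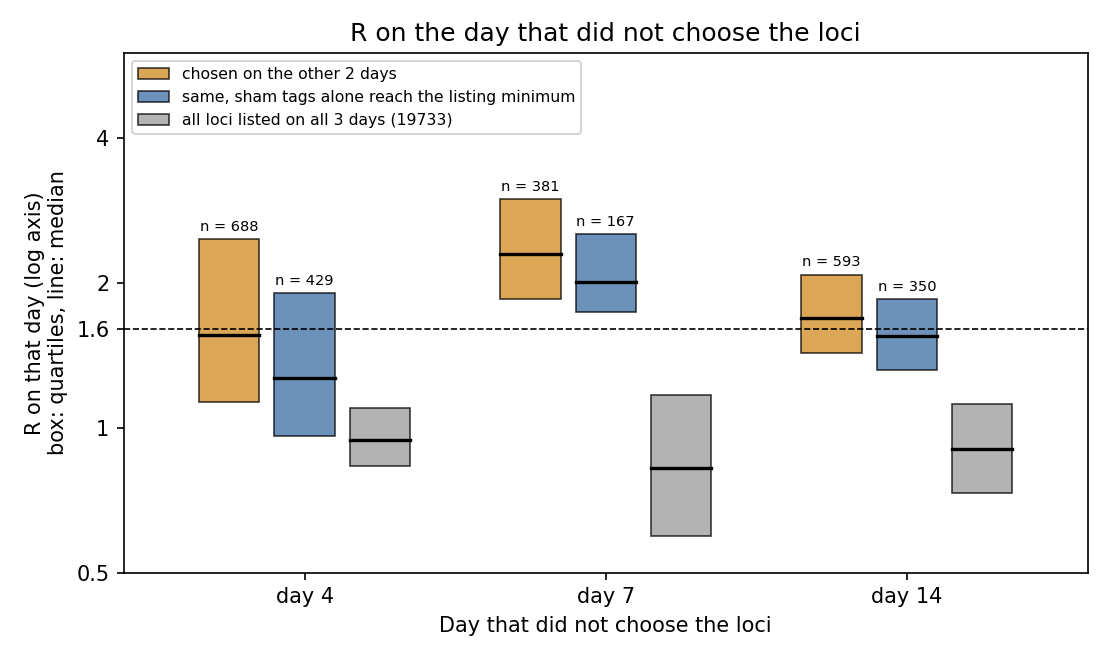
Boxes give the quartiles and lines the median of R (log axis) on the day that did not choose the loci, for loci with an R of at least 1.6 on the other 2 days, for those of them whose sham tags alone reached the listing minimum, and for all 19733 loci listed on all 3 days. The medians of the chosen loci are 1.56 on day 4, 2.29 on day 7 and 1.69 on day 14, all above those of the other loci, which are 0.941, 0.824 and 0.904.

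Among the 333 loci, those with a high R on one day tended to have a high R on another, most of all between days 7 and 14. Spearman's correlation of R over the 333 loci between days 7 and 14 was 0.54, while days 4 and 7 gave 0.33 and days 4 and 14 gave 0.25. Over all 19733 loci it was 0.70, 0.31 and 0.30. These are descriptions across loci of the same 6 libraries. The rule removed all R under 1.6, which narrows the range within the gained loci, and days 7 and 14 share their genotype, sorting and aligner.

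The 10 loci with the largest smallest R were above 3.5 on every day. At chr8:26084251-26086750 there were 32, 77 and 151 sham tags on days 4, 7 and 14 against 136, 268 and 536 border zone tags before scaling. Its R was nearly level, with 4.86 on day 4 (interval 3.29 to 7.38), then 4.93 (3.81 to 6.44) and finally 4.8 (4.00 to 5.78). At chr7:25171751-25173250, 32, 56 and 106 sham tags stood against 161, 233 and 354 border zone tags. R there was 5.90, 6.03 and 4.51, and its 3 intervals overlapped.

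Several of the others rest on few sham tags. The locus chr17:73612251-73613250 had 10, 10 and 34 sham tags against 38, 53 and 121 border zone tags, and R was 4.19 (2.05 to 9.43), 6.66 (3.35 to 14.7) and 4.81 (3.26 to 7.26). At chr13:5836251-5837250, 16, 23 and 50 sham tags stood against 91, 94 and 148, and R was 6.67, 5.93 and 4.00, within overlapping intervals. The locus chr18:8896251-8897250 had an R of 5.29, 4.49 and 4.14 from 10, 14 and 45 sham tags, and chr9:78470751-78471750 had 5.71, 4.02 and 3.96 from 11, 15 and 44. Sham tags were thus scarce on day 4 in particular.

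The next 4 had a smallest R between 3.51 and 3.61. At chr14:22639751-22640750 R was 6.01, 3.61 and 3.93, from 16, 16 and 63 sham tags. At chr17:24143751-24145250 it was 3.60, 5.23 and 3.58, from 19, 33 and 113 sham tags. The locus chr4:9999251-10000750 had 40, 21 and 51 sham tags against 164, 51 and 133 border zone tags, and an R of 4.69, 3.52 and 3.52. The locus chr14:69873251-69875750 had 12, 32 and 207 sham tags against 39, 78 and 538, and an R of 3.58, 3.54 and 3.51, again level over the days.

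**Figure D4:**
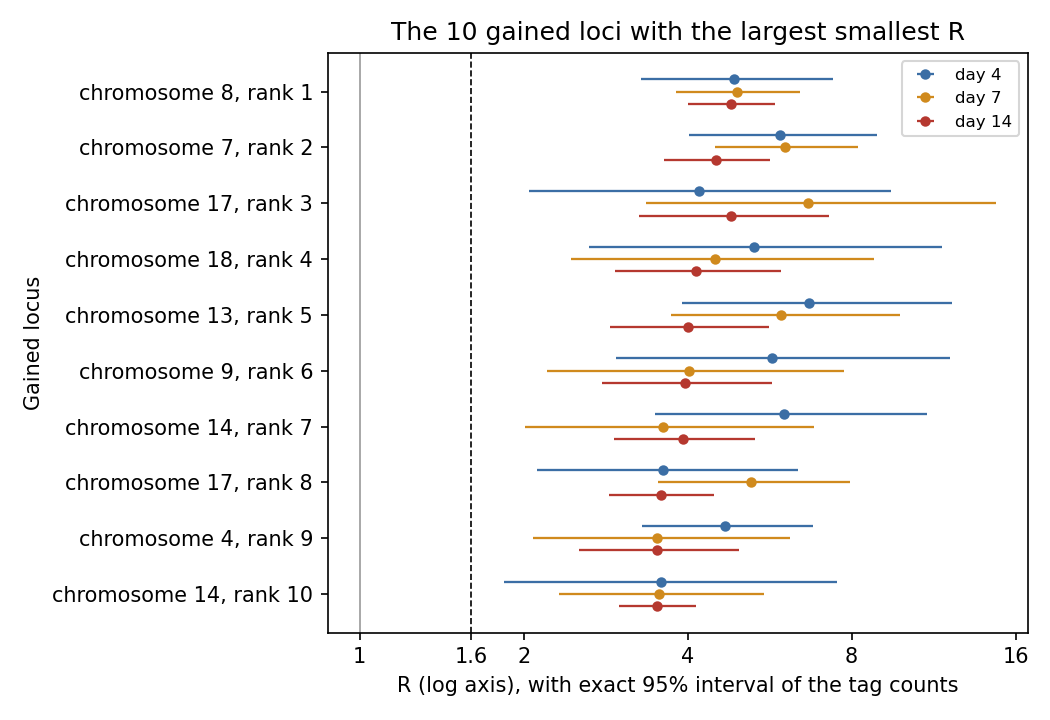
Points give R (log axis) on days 4, 7 and 14 for the 10 gained loci with the largest smallest R, in rank order and labelled by chromosome, and bars give the exact 95% interval of the tag counts. In each locus the 3 intervals overlap, and all lower bounds lie above the dashed line at 1.6, the lowest at 1.84.

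The gained loci with the most tags were wider and had lower R. The locus chr15:77627751-77632250, 4500 bp wide, had 213, 370 and 927 sham tags against 397, 460 and 1270 border zone tags. Its R was 2.11 (1.78 to 2.51), 1.78 (1.55 to 2.05) and 1.85 (1.7 to 2.02) in the order of the days, so that counting error was small and R was close to the threshold. At chr12:112901251-112904750, 75, 181 and 897 sham tags stood against 153, 235 and 1365, and R was 2.37, 1.88 and 2.06. At chrX:166409751-166414750, 66, 232 and 796 sham tags stood against 173, 425 and 1205, and R was 2.89, 2.66 and 2.05. These loci passed the listing minimum through their sham tags on all 3 days.

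The other 2 of the 5 lie on chromosome 5. At chr5:15194751-15201750, 7000 bp wide and the widest gained locus, there were 19 sham tags on day 4 but 642 on day 7 and 722 on day 14, and R was 2.32 (1.31 to 4.24), 1.96 (1.76 to 2.17) and 2.28 (2.08 to 2.51). At chr5:15004251-15009250 there were 51, 545 and 546 sham tags, and R was 2.16, 2.18 and 2.14. In all, 5 gained loci lay between 14994251 and 15201750 of chromosome 5, and their sham tags were 6.33 to 33.8 times as many on day 7 as on day 4. The median of all gained loci was 1.62 times, and a rise of at least 5 times was found in 29 of the 333. Over all 19733 loci listed on all 3 days the median was 0.681 times, and such a rise was found in 138. The aligner changed between these days, and its part in these 5 loci was not tested.

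Near the threshold the loci differed little. The 3 gained loci with the smallest R just inside it were chr7:119806251-119807750, chr3:31293251-31294250 and chr10:12598251-12599250, with smallest R of 1.6016, 1.6060 and 1.6122. The 3 just outside were chr16:23272251-23273250, chr11:73006251-73007250 and chr6:19987251-19988750, at 1.5990, 1.5986 and 1.5984. All 6 had their smallest R on day 14. A smallest R under 1.7 was found in 70 of the 333. The lower bound of the counting interval lay above 1 on all 3 days in 329 loci and at or above 1.6 on all 3 days in 81, so for most loci counting error does not separate R from the threshold. These intervals use the tags that chose the loci. A lower bound above 1 is thus largely built into the rule and is no separate evidence of a gain.

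Many gained loci had the smallest widths. Their median width was 1500 bp (quartiles 1000 and 1500), against 1500 bp (1000 to 2000) over all loci listed on all 3 days, and 47.7% against 31.6% were exactly 1000 bp wide. The 13 gained loci over 3000 bp made up 3.90%, against 5.75% of all loci. In 174 of the 333 loci, or 52.3%, the regions of all 3 days had identical coordinates, which was so in 42.5% of all loci. The width was not particular to them. A width of 1000 bp was found in 50% of the 74 loci with an R of at most 0.625 on every day, in 41.5% of those gained on days 4 and 7 but not 14 and in 29.6% of those gained on days 7 and 14 but not 4.

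They were spread over the genome. Of the loci listed on all 3 days only 1 lay on the Y, which was not gained, and none lay on unplaced contigs. All autosomes and the X chromosome held gained loci, from 2 on the X to 29 on chromosome 7. As a share of the loci listed on all 3 days, they ranged from 0.976% on the X (exact interval 0.118 to 3.48%) and 1.0% on chromosome 11 (0.519 to 1.74%) to 2.34% on chromosome 7 (1.57 to 3.34%) and 2.47% on chromosome 15 (1.56 to 3.72%). The intervals of the 20 chromosomes that held gained loci all overlapped, with 1.69% as the share over all. Most gained loci stood alone. Another gained locus lay within 50 kb of 39 of the 333, or 11.7% (8.46 to 15.7%), whereas 3.52% of the other loci listed on all 3 days had a gained locus that near. Without the 5 loci of the chromosome 5 stretch the share was 10.4%. Such grouping was also seen elsewhere. Among loci gained on days 7 and 14 but not 4, 12.7% had another of their own kind within 50 kb, against 3.3% of the other loci, and among the loci reduced on all 3 days 8.11% did, against 0.443%.

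The 39 loci formed 18 pairs and 1 group of 3. The group of 3 was part of the chromosome 5 stretch, from 15134251 to 15201750, with an R over its summed tags of 2.12, 2.13 and 2.26. The tightest pair spanned 4 kb, at chr4:111267251-111268250 and chr4:111270251-111271250. These 2 loci together had 116, 50 and 210 sham tags against 265, 125 and 384 border zone tags, and R over the pair was 2.68 (2.15 to 3.36), 3.63 (2.59 to 5.14) and 2.47 (2.08 to 2.94). A pair at chr1:108296751-108298250 and chr1:108304251-108305250 had 80, 108 and 243 sham tags against 176, 201 and 426, and an R of 2.50, 2.61 and 2.37. In both pairs the intervals of the 3 days overlapped, although the day 7 R of the chromosome 4 pair lay above the day 14 interval.

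Loci around the gained ones were also higher in the border zone on days 7 and 14. Other listed loci whose midpoint lay within 10 kb of that of a gained locus had a median R of 1.48 on day 7 (95% order-statistic interval 1.38 to 1.56, 289 loci) and 1.32 on day 14 (1.25 to 1.39, 317 loci). On day 4 the median was 1.07 (1.02 to 1.13, 296 loci). More than 200 kb away the medians were 0.979, 0.984 and 0.995 on days 7, 14 and 4. Of the loci within 5 kb, 46.2% had an R of at least 1.6 on day 7 and 29.3% on day 14, against 22.5% and 13.3% beyond 200 kb. On day 4 these shares were 15.3% and 13.6%. The medians were lower farther out, and on day 7 were 1.25 from 10 to 25 kb and 1.07 from 25 to 50 kb. These neighbours did not enter the rule, other than that none of them could itself be a gained locus, but they were counted in the same 6 libraries and are not replicates.

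Where the neighbours' sham tags alone reached the listing minimum, the median within 10 kb was 1.16 on day 7 (1.08 to 1.26) and 1.12 on day 14 (1.06 to 1.17), against 0.830 and 0.894 beyond 200 kb. On day 4 it was 0.983 (0.936 to 1.03) against 0.932. The restriction lowered R near and far, so that on day 4 the median near gained loci moved from above 1 to below it and stayed above that of distant loci. The day 4 share with an R of at least 1.6 was then 4.63% within 5 kb, no higher than the 4.72% beyond 200 kb. On day 7 these shares were 24.7% and 8.84%, and on day 14 they were 13% and 4.31%. Loci with an R of at least 1.6 on days 7 and 14 but not on day 4 numbered 355, and the loci within 10 kb of them had medians of 1.07 (1.02 to 1.15), 1.56 (1.47 to 1.67) and 1.29 (1.22 to 1.37) on days 4, 7 and 14. Each of these intervals overlapped that around the 333 loci, although the 355 loci themselves had a median R of only 1.14 on day 4. The loci gained on days 4 and 7 but not 14 were compared in the same way. The medians of all listed neighbours were 1.14 (1.08 to 1.20), 1.30 (1.14 to 1.41) and 1.16 (1.07 to 1.19). Their day 14 interval lay below that around the 333 loci. With the neighbours' sham tags alone at the listing minimum, the day 14 intervals overlapped, at 0.925 to 1.08 against 1.06 to 1.17. Around the 74 loci with an R of at most 0.625 on every day, the medians were 0.836, 0.571 and 0.717. None of the 333 gained loci had such a reduced locus within 50 kb, where a count of 0, taken as at most 3 loci, allows a share of up to 0.901% and the exact interval reaches 1.1%. Of the other loci 0.450% had one, so a lower share was not detectable.

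**Figure D5:**
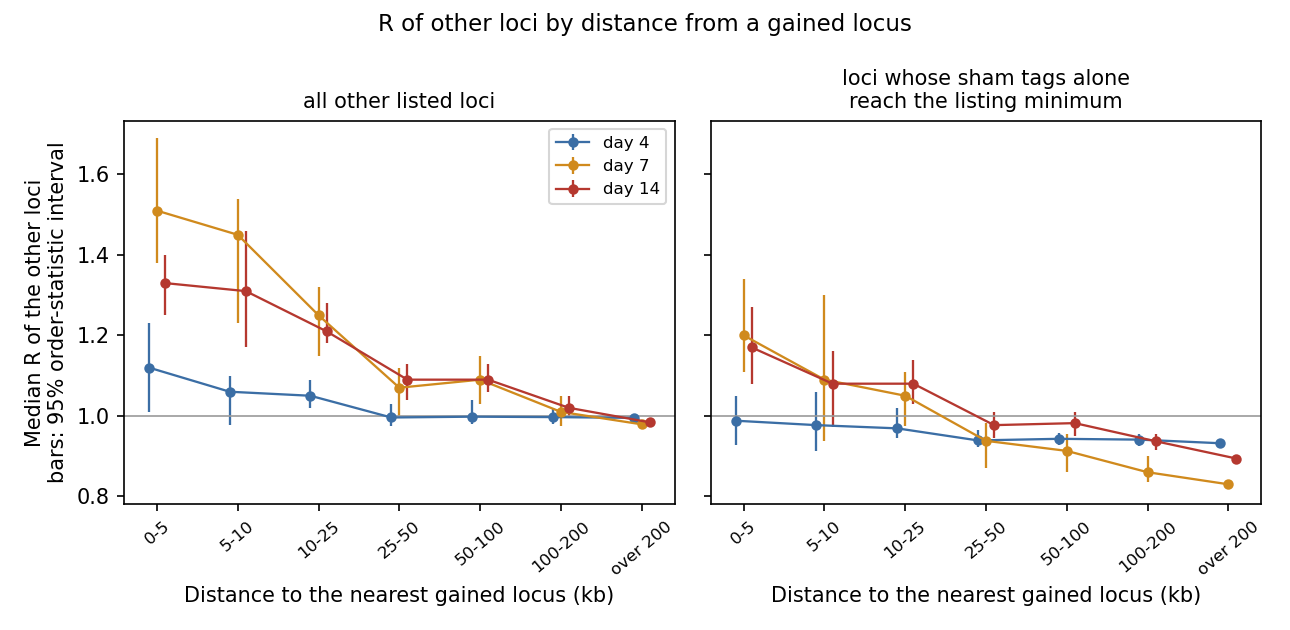
Points give the median R of loci that were not gained on all 3 days, by the distance of their midpoint to the nearest gained locus in kb, on days 4, 7 and 14, and bars give the 95% order-statistic interval. On the left are all other listed loci and on the right those whose sham tags alone reached the listing minimum. The medians of days 7 and 14 are highest near a gained locus, at 1.51 and 1.33 within 5 kb on the left, and those of day 4 stay between 0.932 and 1.12 in both panels.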

How the data were processed

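Of the series' samples, the 6 ATAC-seq libraries were used and the 30 RNA-seq samples were not analysed here. Reads were aligned to mm9 with Bowtie2 on day 4 (paired reads of 76 bp) and with BWA on days 7 and 14, and bedtools was used, per the submitters' processing notes and the labels' protocols. The sources used here do not name the region caller. Each of 9 lists gives, per the file headers, sham tags and border zone tags per region. Sham tags are deposited counts. Border zone tags are a deposited signal scaled to sham, except for deposited counts in the non-differential list of day 4. The factors were read from the values (1.03, 1.10 and 1.000 on day 4, 1.35 and 1.17 on day 7, 1.37 and 1.18 on day 14). Of 85106 scaled values, 97.7% were whole multiples of 1 unrounded factor within 0.001 tags plus 0.001% of the value. The other 2.35% were read as sums of 2 factors within 0.002 tags plus 0.001%, a looser match. R used the listed values. Intervals are exact Clopper-Pearson 95% intervals of whole tags or of loci, and cover counting error only. With 1 library per condition and day, the spread between animals and libraries was not measured. No molecular identifiers mark which tags come from separate molecules, so the intervals of tags may be too narrow.

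Listed regions held 5907384, 3858892 and 13936013 sham tags and 5470049, 2743395 and 10328518 whole border zone tags on days 4, 7 and 14. Library depth is unknown here. Lists were matched to samples by column names and labels, and 0 unmapped columns remained. The members and lists were chosen with earlier results of these data known. The loci named were the 10 with the largest smallest R, the 5 with the most tags, the 3 densest groups within 50 kb, and the 3 on each side of the threshold. Joining, R and the recovery of whole tags were tested on simulated data. Python 3.11.15, pandas 2.3.3 and scipy 1.17.1 were used.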

Additional observations from a re-analysis of the deposited data

Results flagged for a closer look

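Loci that one day did not list could not enter the rule, although they were higher in the border zone than in sham on the other days. An R of at least 1.6 on both days 7 and 14 with no region on day 4 was found in 1798 loci, which was 28.5% of the 6304 loci listed on those 2 days alone, with a median R of 2.44 and 2.09. There were 188 such loci for days 4 and 14 without day 7, or 3.14% of 5993. For days 4 and 7 without day 14 there were 144, or 10.9% of 1327. The median sham tags of the 1798 loci were 38 on day 7 and 125 on day 14, under the listing minima of 50 and 150. They were 30 and 89 for the 188 loci and 26 and 32 for the 144, also under the minima of their days. The typical locus of each set was thus listed through its border zone tags alone and had to be higher there. A locus missing from a list has no measured value on that day, so these loci may or may not have been gained on it.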

How the results depend on the processing

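The number of gained loci was 333 as reported. It was 545 with the day's factor taken from the loci listed on all 3 days, which raises log2 R by 0.088, 0.28 and 0.15 on days 4, 7 and 14, and 130 with an R of at least 2. It was 688 without day 4, 593 without day 14 and 62 where sham tags alone reached the listing minimum on every day. The first of these kept all 333 loci, which were 61.1% of its own. The other settings gave 226 to 470, and whole tags gave 336, of which 328 were shared. The held-out medians for days 4, 7 and 14 became 1.91, 2.83 and 1.91 with loci chosen at an R of at least 2, and the shares reaching 1.6 became 57.0%, 94.7% and 69.7%. At 1.5, days 7 and 14 gave 2.11 and 1.61, with shares of 80.7% and 50.7%. With at least 20 sham tags on every day the medians were 1.42, 2.18 and 1.62, and the shares of days 4 and 14 were 39.3% and 51.5%. With sham tags alone at the listing minimum, the medians were 1.27, 2.01 and 1.55 and the shares 30.3%, 80.8% and 41.7%. The share of gained loci with another nearby was 20.1% within 200 kb. The median R of loci within 10 kb was 1.16 on day 7 and 1.12 on day 14 with sham tags at the minimum, and on day 4 it was 0.983 in place of 1.07, on the other side of 1, while that beyond 200 kb was 0.932 in place of 0.995. It was 1.34 on day 7 within 25 kb. Fewer or more loci enter these settings by construction, and no other cause was tested. The listing minimum, and all settings for the loci within 10 kb, were chosen after the data were seen. GC content, motifs and gene context were not run, because no mm9 genome or annotation was used here. No paired analysis was possible because no result comes from a test, since the tags of all 3 days chose the loci. Every ratio is taken within a day, and a fit with the day as a block was not run.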

Other observations

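In a few gained loci the sham tags did not follow the days as elsewhere; these were singled out after their values were seen. At chr7:86108251-86109750 sham tags numbered 60, 31 and 20 on days 4, 7 and 14, although the day 14 library held 3.28 times the tags of day 7 at the median gained locus. Its border zone tags were 141, 111 and 162, and R rose from 2.71 (1.99 to 3.72) to 4.89 and 9.43 (5.91 to 15.8), the highest of any gained locus on day 14. At chr18:11288251-11289250 sham tags numbered 13, 80 and 40 against 43, 108 and 238, and R was 3.65, 1.96 and 8.04 (5.73 to 11.5). The highest R on day 4, 21.3 (5.53 to 182), was at chr12:105423751-105425250 and rested on 2 sham tags against 40 border zone tags, and R there was 5.22 on day 7 and 2.30 on day 14.

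At chr19:36188251-36192750 R was lowest on day 4 and highest on day 14, the day of the highest R in 24 of the 333 loci. Sham tags numbered 164, 46 and 659 against 260, 67 and 1181 border zone tags, and R was 1.71 on day 4 (1.40 to 2.09), 2.11 on day 7 and 2.42 on day 14 (2.20 to 2.67). The day 14 interval lay above that of day 4 in this locus and in 2 others.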
